A study of Mus musculus with 4 samples.

Results

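Protein kinase A (PKA) is the enzyme through which cyclic AMP acts in most cells, and the genes of its subunits and inhibitors were described here by the open chromatin in and around them. The 9 genes encode the catalytic subunits Prkaca and Prkacb, the type I regulatory subunits Prkar1a and Prkar1b, the type II regulatory subunits Prkar2a and Prkar2b, and the heat-stable inhibitors Pkia, Pkib and Pkig. Called peaks of 4 libraries were merged into regions wherever they shared at least 1 bp, and the regions in the body of 1 of these genes or within 50 kb of it were taken. This gave 666 of the 560228 regions of the whole series.

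In the resting enzyme, a dimer of regulatory subunits holds the catalytic subunits inactive, and cyclic AMP bound to the regulatory subunits frees them. Type II regulatory subunits bind tightly to A-kinase anchoring proteins, which place the enzyme at membranes and organelles, and type I subunits are largely soluble. The heat-stable inhibitors carry a sequence that resembles a substrate, bind free catalytic subunits and carry them out of the nucleus. In principal cells of the kidney collecting duct, vasopressin acts through the V2 receptor, Gs and adenylyl cyclase to raise cyclic AMP, and PKA is a main effector of that signal.

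Chromatin was assayed by ATAC-seq, in which a transposase inserts sequencing adapters into exposed DNA, in mpkCCD cells of clone 11, a line of mouse cortical collecting duct cells at passages 8 to 10. One group of 2 libraries came from cells treated for 30 min with dDAVP at 0.1 nM, an analog of vasopressin that prefers the V2 receptor, and the other group of 2 from cells given vehicle for the same time. All cells were confluent on permeable supports in medium free of serum and hormones, and each library was made from 50000 cells of this 1 clone. Separate cultures are not named in the labels, so every p below measures only the spread between these libraries, which may be technical.

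The lists held 291454 and 205771 peaks in dDAVP replicates 1 and 2, and 393956 and 206972 peaks in vehicle replicates 1 and 2. The replicate 1 lists of both treatments were thus the longer ones, and vehicle replicate 1 was the longest. The files give positions only, so a peak was either listed or not, its width in bases was the only value that varied, and the depth behind it is unknown. Among marker genes, 9 of 12 for principal cells, 5 of 8 for intercalated cells, 3 of 8 for proximal tubule and 2 of 8 for stroma and leukocytes had a peak within 1 kb of a start in all 4 libraries. Aqp2, the vasopressin-regulated water channel, was among the 9, while Aqp3, Scnn1b and Tfap2b lacked a start peak in at least 1 library. Of all 21887 protein-coding genes, 64.3% had a start peak in all 4 libraries, so these small lists alone do not establish a cell type.

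The 9 genes have many annotated starts, and whether a start lay in open chromatin varied within a gene. RefSeq promoter windows of GRCm38.p6 (the mm10 assembly), which run from 250 bases before to 50 bases after a start, matched 8 of the 9 genes and gave 24 starts. The windows below are shown because each pair sets a start with peaks in all 4 libraries beside another start of the same gene without them. Starts are numbered along each gene in the direction of transcription. The windows are written 5′ to 3′ on the gene's strand, and capitals mark matches to the motifs described after them.
Prkaca start 1, chr8:83972728-83973027, plus strand, peak in all 4 libraries: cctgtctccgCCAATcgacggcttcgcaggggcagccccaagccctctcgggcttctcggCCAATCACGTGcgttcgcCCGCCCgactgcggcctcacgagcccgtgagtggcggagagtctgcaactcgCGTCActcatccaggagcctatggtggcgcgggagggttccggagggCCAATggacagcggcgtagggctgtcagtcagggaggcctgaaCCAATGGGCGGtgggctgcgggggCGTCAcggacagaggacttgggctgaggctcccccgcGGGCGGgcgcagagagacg
Prkaca start 2, chr8:83976633-83976932, plus strand, no peak in the window: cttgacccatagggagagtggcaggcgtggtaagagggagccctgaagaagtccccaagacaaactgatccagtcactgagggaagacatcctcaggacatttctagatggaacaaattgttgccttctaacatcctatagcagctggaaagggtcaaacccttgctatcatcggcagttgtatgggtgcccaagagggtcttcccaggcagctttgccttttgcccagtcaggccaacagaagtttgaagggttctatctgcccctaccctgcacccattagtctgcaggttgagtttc
Prkar1a start 5, chr11:109650699-109650998, plus strand, peak in all 4 libraries: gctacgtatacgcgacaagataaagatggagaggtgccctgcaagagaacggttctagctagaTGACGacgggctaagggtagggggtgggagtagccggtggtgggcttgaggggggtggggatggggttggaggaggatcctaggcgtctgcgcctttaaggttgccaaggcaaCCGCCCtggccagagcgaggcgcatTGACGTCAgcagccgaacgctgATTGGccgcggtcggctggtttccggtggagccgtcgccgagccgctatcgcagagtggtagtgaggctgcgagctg
Prkar1a start 1, chr11:109648773-109649072, plus strand, no peak in the window: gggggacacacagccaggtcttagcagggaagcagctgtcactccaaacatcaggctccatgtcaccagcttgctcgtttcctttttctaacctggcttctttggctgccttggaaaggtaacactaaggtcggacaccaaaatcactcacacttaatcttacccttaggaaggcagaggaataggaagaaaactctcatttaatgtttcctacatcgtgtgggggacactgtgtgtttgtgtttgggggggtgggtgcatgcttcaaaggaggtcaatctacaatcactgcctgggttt
Pkib start 1, chr10:57631731-57632030, plus strand, peak in all 4 libraries: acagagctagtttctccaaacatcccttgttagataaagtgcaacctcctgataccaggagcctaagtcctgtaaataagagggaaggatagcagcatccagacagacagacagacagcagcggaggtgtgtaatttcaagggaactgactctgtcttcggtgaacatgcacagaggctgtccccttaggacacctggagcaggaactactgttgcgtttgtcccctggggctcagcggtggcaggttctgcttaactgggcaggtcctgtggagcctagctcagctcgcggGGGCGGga
Pkib start 2, chr10:57645619-57645918, plus strand, peak in the replicate 1 libraries only: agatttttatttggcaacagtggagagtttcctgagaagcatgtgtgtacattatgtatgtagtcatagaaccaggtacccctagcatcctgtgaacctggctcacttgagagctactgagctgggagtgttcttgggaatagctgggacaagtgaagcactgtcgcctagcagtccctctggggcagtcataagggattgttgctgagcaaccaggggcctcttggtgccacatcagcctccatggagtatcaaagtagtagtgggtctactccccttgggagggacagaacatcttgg
Pkig start 2, chr2:163658208-163658507, plus strand, peak in all 4 libraries: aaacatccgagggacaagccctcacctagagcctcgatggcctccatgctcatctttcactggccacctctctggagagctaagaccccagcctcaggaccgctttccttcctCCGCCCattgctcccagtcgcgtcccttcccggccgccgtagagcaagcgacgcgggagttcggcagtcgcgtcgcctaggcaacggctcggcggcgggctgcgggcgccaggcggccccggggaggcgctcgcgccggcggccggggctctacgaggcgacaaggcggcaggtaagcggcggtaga
Pkig start 3, chr2:163693787-163694086, plus strand, peak in vehicle replicate 1 only: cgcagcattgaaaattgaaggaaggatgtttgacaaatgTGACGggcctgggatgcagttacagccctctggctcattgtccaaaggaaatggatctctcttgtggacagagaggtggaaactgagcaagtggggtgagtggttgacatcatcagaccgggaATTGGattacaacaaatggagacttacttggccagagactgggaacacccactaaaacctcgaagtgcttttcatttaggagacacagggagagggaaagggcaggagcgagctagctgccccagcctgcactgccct

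Of the 24 windows, 15 overlapped a peak in all 4 libraries, 6 overlapped none, and 3 overlapped a peak in 1 or 2 libraries. Over all 32851 windows of the table, 41.6% overlapped a peak in all libraries and 39.7% overlapped none. The 15 open windows had a G + C content of 54% to 81.7%, with a median of 68.3%, and held 7 to 46 CpG pairs. The 6 windows without a peak had 42.3% to 57.7% G + C, with a median of 50%, and 2 to 7 CpG pairs. The same direction held over all windows of the table, with median G + C contents of 62% where all libraries had a peak and 45% where none had. Windows of 1 gene can overlap each other, as those of starts 4 and 5 of Prkar1a do, or share 1 region, so the 24 are not independent.

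**Figure D1:**
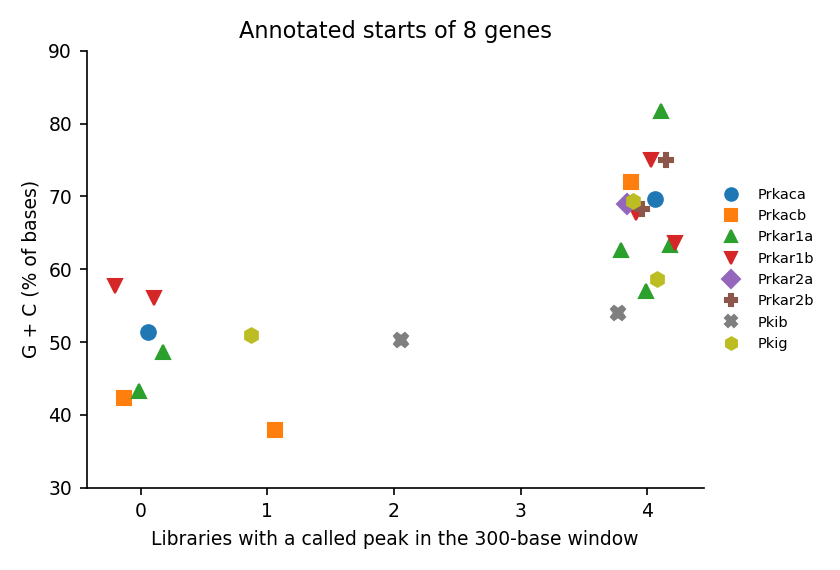
G + C content (percent of bases, vertical axis) of the 300-base window at each of 24 annotated starts of 8 genes, by the number of libraries with a called peak in the window (horizontal axis, points spread sideways within a number). The 15 starts with a peak in all 4 libraries sit at 54% to 81.7%, and the 6 starts with none at 42.3% to 57.7%.

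The Prkaca pair shows the contrast over a distance of 3905 bases. The first start, with 69.7% G + C and 31 CpG pairs, held 4 CCAAT boxes (CCAAT), 3 GC boxes (GGGCGG), 2 short cyclic AMP response elements (TGACG) and 1 E-box (CACGTG), counted on both strands. The second start, with 51.3% G + C and 2 CpG pairs, held no match to any of the 8 motifs searched, which is why its window above has no capitals.

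The full cyclic AMP response element (TGACGTCA), the site of CREB, a transcription factor that PKA phosphorylates, was in 2 of the 24 windows, against 1.79% of all windows. Both were windows of Prkar1a, and they held the same site, which begins 49 bases before start 5 and 38 bases after start 4. Each such site also counts as a short element (TGACG) on both strands. The short element was in 8 of 24 windows of the members and in 20.8% of all windows. GC boxes were in 13 of 24 windows (35.7% of all), CCAAT boxes in 6 (37.4%), ETS cores (CCGGAAG) in 3 (8.86%) and E-boxes in 4 (7.15%). No member window held an AP-1 site (TGANTCA, 7.81% of all) or an NRF1 site (0.971% of all). These matches describe letters only, and binding of a factor was not measured.

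All 9 genes had a peak within 1 kb of a start in all 4 libraries, where 64.3% of 21887 protein-coding genes did. For Pkia, for which the gene table gives no strand, either end of the gene was used, and the peak lay at the end of lower coordinate. The widest start regions of the genes fell into a wide group and a narrow one by role. Those of the 6 subunit genes averaged 1180 bp to 1723 bp, and those of the 3 inhibitor genes 634.5 bp to 898 bp. This difference was seen in the data and not tested. It does not hold for every start region, since further ones averaged 754 bp at Prkar1b and 189 bp at Prkacb. Widths below are bases in called peaks, in dDAVP replicates 1 and 2 and then in vehicle replicates 1 and 2.

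Of the catalytic subunits, Prkaca (gene at chr8:83972978-83996444, plus strand) encodes the alpha form, the main catalytic subunit of most tissues. Its start region, chr8:83972211-83973702, was 1426 bp and 1377 bp wide in dDAVP libraries and 1449 bp and 1383 bp in vehicle libraries. These 4 widths lay within a few percent of each other and the groups overlapped. The limma estimate of log2(dDAVP/vehicle) was 0.03 ± 0.28 (SE, n = 2 per treatment). This SE, like each SE of a log2 difference below, is moderated: limma draws each region's variance toward a value shared by all regions. It is therefore not the spread of a region's own widths, and it can exceed that spread where widths vary little. Prkacb (chr3:146729579-146812946, minus strand) encodes the beta form. Its first start, in chr3:146812157-146813546, was covered by 1221 bp and 1129 bp in dDAVP libraries and by 1229 bp and 1390 bp in vehicle libraries. Both dDAVP values lay below both vehicle values by a small margin, with a log2 difference of -0.10 ± 0.30 (SE). This region also lies within 1 kb of a start of LOC115486180, so it cannot be assigned to Prkacb alone. The second Prkacb start lay in a narrow region, chr3:146781178-146781486, with 145 bp and 156 bp in dDAVP libraries and 147 bp and 308 bp in vehicle libraries, and only the peak of vehicle replicate 2 reached its 300-base window. The window of Prkacb start 3 had no peak, and a region within 1 kb of that start, chr3:146770929-146771318, had 273 bp and 390 bp in dDAVP libraries and 275 bp in vehicle replicate 1 alone.

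Of the type I regulatory subunits, Prkar1a (chr11:109649023-109669663, plus strand) is the form expressed most widely. A single region of 1652 bp and 1731 bp in dDAVP libraries and 1791 bp and 1718 bp in vehicle libraries, chr11:109650081-109651901, covered its starts 3 to 6, and the windows of starts 1 and 2 had no peak in any library. This was the widest of the 9 start regions by mean, and its groups overlapped (log2 difference -0.02 ± 0.28, SE). Prkar1b (chr5:139017304-139150703, minus strand), whose product is best known from brain, had its first and second starts in chr5:139149192-139150853, with 1561 bp and 1649 bp in dDAVP libraries and 1555 bp and 1558 bp in vehicle libraries. The dDAVP widths were both above the vehicle widths, the lower of them by only a few bases, and the log2 difference was 0.08 ± 0.28 (SE). That region also lies within 1 kb of the start of Dnaaf5, a dynein assembly factor gene on the other side, so it cannot be assigned to Prkar1b alone. A separate Prkar1b start farther into the gene, in chr5:139129227-139130114, had 493 bp and 827 bp in dDAVP libraries and 867 bp and 828 bp in vehicle libraries. It held start 5, while the windows of starts 3 and 4 beside it had no peak.

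Of the type II regulatory subunits, Prkar2a (chr9:108692143-108750444, plus strand) had a start region, chr9:108691407-108693337, of 1356 bp and 1921 bp in dDAVP libraries and 1534 bp and 1660 bp in vehicle libraries. The dDAVP libraries held both the lowest and the highest of these widths. The log2 difference was 0.05 ± 0.34 (SE). Prkar2b (chr12:31958450-32061648, minus strand), the form typical of neural and fat tissue, had 1118 bp and 1216 bp in dDAVP libraries and 1196 bp and 1191 bp in vehicle libraries in chr12:32060457-32061741, which covered both of its starts. The groups overlapped, with a log2 difference of 0.01 ± 0.29 (SE).

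The inhibitor genes varied more between libraries. At Pkia (chr3:7366604-7445366), which encodes the alpha inhibitor, chr3:7366085-7367457 held 994 bp and 915 bp in dDAVP libraries and 608 bp and 1074 bp in vehicle libraries. The vehicle libraries held both extremes, and the log2 difference was 0.34 ± 0.47 (SE). The 1074 bp of vehicle replicate 2 summed 2 separate peaks. At Pkib (chr10:57631981-57741112, plus strand), the beta inhibitor, chr10:57631868-57633071 held 755 bp and 279 bp in dDAVP libraries and 798 bp and 921 bp in vehicle libraries. Over this merged region, both dDAVP widths were below both vehicle widths, dDAVP replicate 2 by the most. The log2 difference was -0.80 ± 0.55 (SE), and it was -0.16 without dDAVP replicate 2. The 798 bp of vehicle replicate 1 summed 2 separate peaks, and the peak reaching the window of start 1 had 359 bp. Peaks reaching that window had 755 bp and 279 bp in dDAVP libraries and 921 bp in vehicle replicate 2, so the groups overlapped there. At Pkig (chr2:163658211-163726158, plus strand), the gamma inhibitor, chr2:163658214-163659276 held 469 bp and 1055 bp in dDAVP libraries and 461 bp and 553 bp in vehicle libraries. Only dDAVP replicate 2 was wide there. The log2 difference of 0.55 ± 0.56 (SE) became -0.080 without that library. The adjusted limma p of each of these 9 start regions was 1.00 after rounding, with Benjamini-Hochberg adjustment over 88231 regions.

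**Figure D2:**
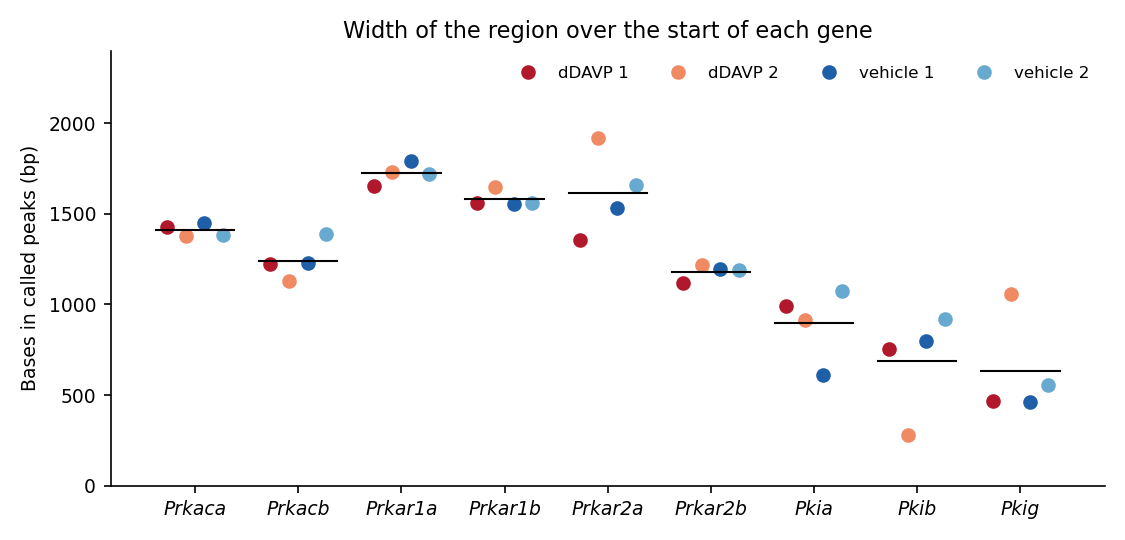
Bases in called peaks (bp, vertical axis) of each gene's widest start region with peaks in all 4 libraries. Each library has 1 point, with dDAVP libraries in red and orange left of vehicle libraries in blue, and a black line at the mean of 4. The 6 subunit genes have means of 1180 bp to 1723 bp, the 3 inhibitor genes means of 634.5 bp to 898 bp, and single libraries stand apart at Prkar2a, Pkia, Pkib and Pkig.

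Away from the starts, the genes differed in how much open chromatin lay around them. Of the 666 regions, 126 (18.9%) had a peak in all 4 libraries, against 15.7% of all regions, and 310 (46.5%) were in a single library, against 53.1% of all regions. The regions present in all libraries had a median span of 681.5 bp and those in 1 library a median span of 150.5 bp. Of the single-library regions, 145 were in vehicle replicate 1, the longest list, 74 in dDAVP replicate 1, 49 in dDAVP replicate 2 and 42 in vehicle replicate 2. The 9 genes had a median of 12 all-library regions, or 7.63 per 100 kb of window, and all protein-coding genes had medians of 6 and 4.66 per 100 kb.

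Prkar1b had 33 all-library regions, more than 99.2% of protein-coding genes, Prkar2b had 25 (more than 97.8%) and Pkig had 18 (more than 92.0%). Prkacb had 14, Prkaca 12, Prkar2a and Pkib 7 each, and Prkar1a and Pkia 5 each. The windows differ in length. Per 100 kb the values were 14.1 for Prkar1b, 12.3 for Prkar2b, 10.7 for Pkig, 9.72 for Prkaca, 7.63 for Prkacb, 4.42 for Prkar2a, 4.14 for Prkar1a, 3.35 for Pkib and 2.80 for Pkia. By this density Prkar1b was above 93.3% of protein-coding genes, Prkar2b above 87.8%, Pkig above 81.8%, Prkaca above 77.2% and Prkacb above 67.1%. Prkar2a (48.3%), Prkar1a (46.6%), Pkib (39.3%) and Pkia (34.0%) lay below the median gene. Among the regulatory subunits, Prkar1b was thus above Prkar1a and Prkar2b above Prkar2a, while the catalytic pair lay closer together.

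The share of each window covered by peaks gave the spread over libraries. It averaged 13.6% ± 1.02 for Prkaca, 12.0% ± 1.90 for Prkar1b, 11.6% ± 3.85 for Prkar2b, 11.0% ± 2.19 for Pkig, 8.57% ± 3.48 for Prkacb and 7.11% ± 1.94 for Prkar1a (SD, n = 4). It averaged 4.32% ± 0.456 for Prkar2a, 3.25% ± 0.880 for Pkia and 2.58% ± 1.03 for Pkib (SD, n = 4). In that order each gene's range over libraries overlapped the next gene's, apart from 1 step: the lowest Prkar1a library, at 5.45%, lay above the highest Prkar2a library, at 4.77%. Prkaca led by coverage although not by number of regions, and its window holds 8 other protein-coding genes, the most of the 9, while that of Pkia holds none.

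**Figure D3:**
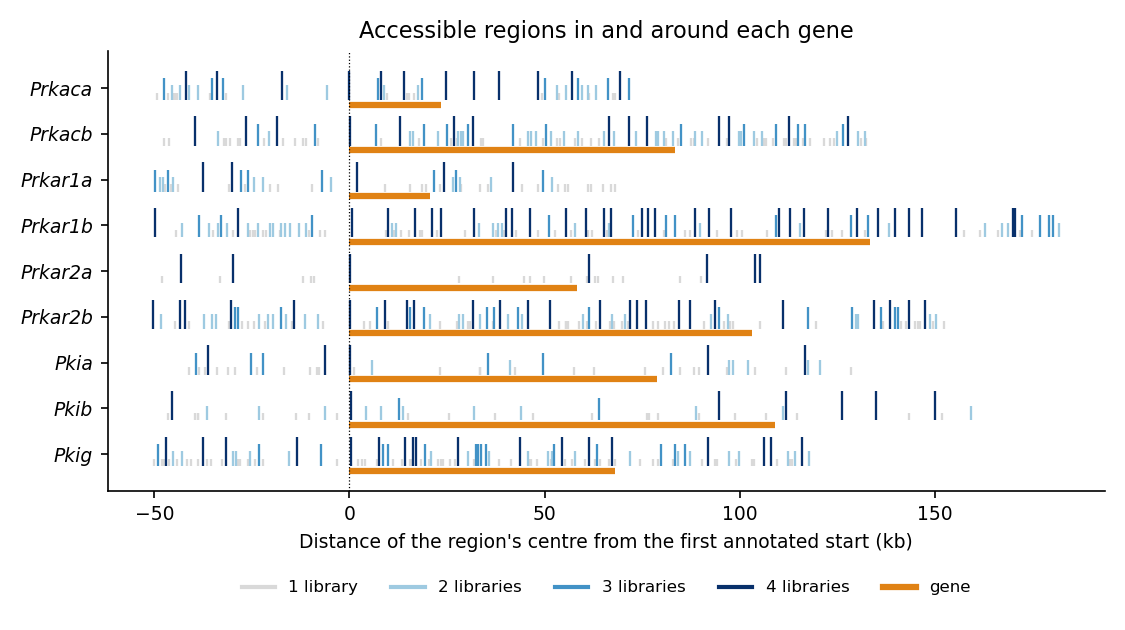
Position of each of the 666 regions as the distance of its centre from the gene's first annotated start (kb, horizontal axis, in the direction of transcription; for Pkia from its end of lower coordinate), with taller and darker ticks for regions in more libraries and the gene body as an orange bar. All-library regions fill the gene bodies of Prkar1b (22 inside, away from the starts) and Prkar2b (14), while those of Prkar1a, Prkar2a and Pkia hold none away from the starts.

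Inside the genes and away from starts there were 53 all-library regions, with 22 in Prkar1b, 14 in Prkar2b, 9 in Pkig, 5 in Prkacb, 2 in Prkaca and 1 in Pkib. Prkar1a, Prkar2a and Pkia had none. The widest in Prkar2b, at chr12:31973227-31974961, had 1447 bp and 1237 bp in dDAVP libraries and 1637 bp and 1256 bp in vehicle libraries. It lay 87.2 kb from the first start and was wider than the start region itself. In Prkar1b, chr5:139052036-139053945 had 1114 bp and 1115 bp in dDAVP libraries and 1901 bp and 934 bp in vehicle libraries, with vehicle replicate 1 alone wide. In Pkig, chr2:163701445-163702639 had 881 bp and 928 bp in dDAVP libraries and 1154 bp and 1118 bp in vehicle libraries. Both dDAVP widths were below both vehicle widths there. The log2 difference of -0.28 ± 0.28 (SE) was no larger than this moderated SE, which does not reflect these widths alone. This region was wider than the one at the Pkig start. In Prkacb, chr3:146736112-146737294, 76.2 kb into the gene, had 1006 bp and 899 bp in dDAVP libraries and 976 bp and 950 bp in vehicle libraries.

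Many of the widest regions near these genes belonged to starts of their neighbours. In the Prkaca window the widest was at Misp3, chr8:84009956-84012734, with 2766 bp and 2779 bp in dDAVP libraries and 2768 bp in each vehicle library. The next, chr8:83996547-83998826, lay just past the far end of Prkaca at Samd1, with 2166 bp and 2195 bp in dDAVP libraries and 2149 bp and 2205 bp in vehicle libraries. Both were wider than the Prkaca start region and varied by 0.213% and 1.19% (SD over mean, n = 4). The Prkar1b window held the start of Pdgfa, a growth factor gene, at chr5:138993844-138996535, with 2477 bp and 2680 bp in dDAVP libraries and 2541 bp and 2631 bp in vehicle libraries. The windows of Prkar2b and Prkar1a held wide regions at Hbp1 (mean 1786 bp) and Wipi1 (mean 1411 bp), that of Prkar2a at Arih2 (1148 bp) and Ip6k2 (1135 bp), that of Pkig at Ada (967 bp) and that of Prkacb at Ttll7 (837 bp). The Pkia and Pkib windows had no all-library region at the start of another gene. Their widest regions away from the starts were chr3:7458249-7458749, with 304 bp and 350 bp in dDAVP libraries and 346 bp and 452 bp in vehicle libraries, and chr10:57766723-57767399, with 525 bp and 425 bp in dDAVP libraries and 568 bp and 624 bp in vehicle libraries. The next widest were chr3:7329850-7330622, outside Pkia, with 227 bp and 285 bp in dDAVP libraries and 746 bp and 181 bp in vehicle libraries, and chr10:57726355-57726947, inside Pkib, with 543 bp and 201 bp in dDAVP libraries and 524 bp and 185 bp in vehicle libraries. Outside Prkar1a, chr11:109618350-109619468 had 487 bp and 352 bp in dDAVP libraries and 102 bp and 949 bp in vehicle libraries. In these 3 regions the groups overlapped.

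By place, 11 of 17 regions within 1 kb of a member's own start were in all libraries (64.7%), as were 20 of 28 at the start of another gene (71.4%), 53 of 273 inside the genes (19.4%) and 42 of 348 outside them (12.1%). The median width of the all-library regions was 1180 bp at own starts, 961 bp at other starts, 367 bp inside the genes and 352 bp outside. Widths at starts also varied less between libraries, by a median of 7.08% (SD over mean, range 0.213% to 44.7%, 31 regions) against 36.2% elsewhere (2.03% to 114%, 95 regions). All-library regions lay close to the 50 kb limit of the windows on both sides. The outermost inside it lay 49.8 kb from Prkar2b (mean 393 bp) and 49.3 kb from Prkar1b (1157 bp). The nearest beyond it lay 51.5 kb from Prkar1a (970 bp) and 51.7 kb from Prkar2b (155 bp).

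The comparison of dDAVP with vehicle asked whether V2 receptor stimulation for 30 min changed accessibility at these genes. The windows of the 9 genes held 369 and 281 peaks in dDAVP libraries and 468 and 273 peaks in vehicle libraries. The mean was 325 ± 62.2 peaks after dDAVP and 370.5 ± 138 peaks after vehicle (SD, n = 2 each), a ratio of 0.877 with a two-sided exact permutation p of 1, where the smallest p that 2 against 2 libraries allow is 0.333. The vehicle values lay on both sides of the dDAVP values. As a share of each list's peaks the members held 0.127% and 0.137% in dDAVP libraries and 0.119% and 0.132% in vehicle libraries, which turns the ratio to 1.05, and without vehicle replicate 1 it was 1.19. No direction could therefore be given.

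Gene by gene, the groups overlapped at each of the 9. Prkar1a had the lowest ratio, 0.685, with 17 and 20 peaks in dDAVP libraries and 35 and 19 in vehicle libraries. Only vehicle replicate 1 was high there. Prkar1b had the highest ratio, 1.01, with 79 and 63 peaks in dDAVP libraries and 82 and 59 in vehicle libraries. At Prkar2b, with 71 and 48 peaks in dDAVP libraries and 94 and 42 in vehicle libraries, the replicate 1 libraries of both treatments were high and the replicate 2 libraries low. The same order, with both replicate 1 libraries above both replicate 2 libraries, held at Prkacb, Prkar1b, Pkia, Pkib and Pkig, and also in the length of the whole lists. Prkar2a had the fewest peaks, with 10 and 12 in dDAVP libraries and 15 and 9 in vehicle libraries.

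**Figure D4:**
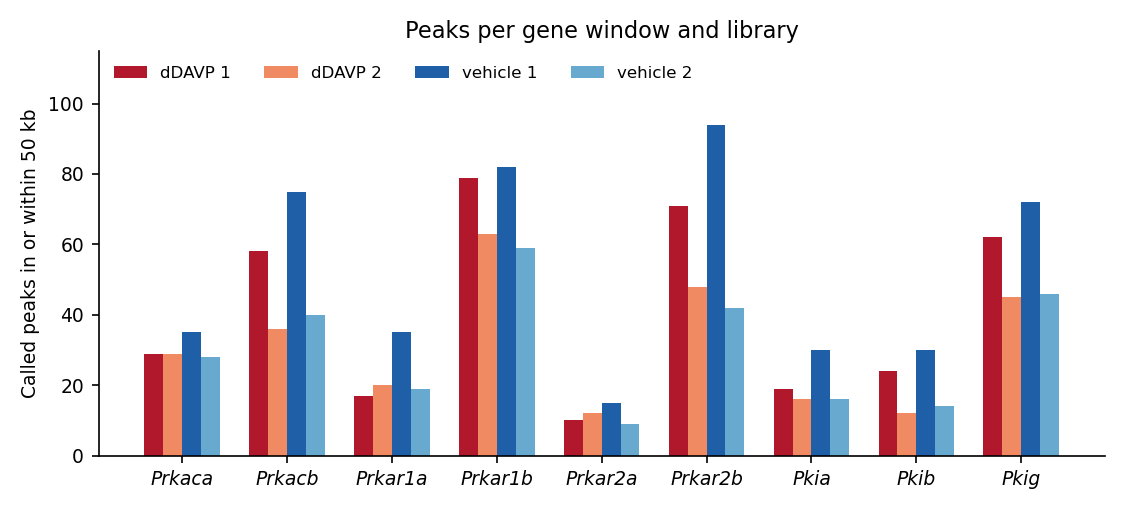
Called peaks (number, vertical axis) in or within 50 kb of each gene, 1 bar per library, dDAVP libraries in red and orange left of vehicle libraries in blue. Vehicle replicate 1, the longest list, has the highest bar at every gene, and the bars of the other libraries show that the treatments overlap.

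Peaks of both dDAVP libraries with none of either vehicle library were found at 13 of 666 member regions (1.95%), against 1.61% of all regions. Peaks of both vehicle libraries with none of either dDAVP library were found at 25 (3.75%), against 3.35% of all regions. Peaks of both replicate 1 libraries with none of either replicate 2 library, a split that does not follow the treatment, were found at 66 (9.91%), against 8.79% of all regions. The opposite side of that split, both replicate 2 libraries with none of either replicate 1 library, held 8 (1.20%), against 1.19% of all regions. The shares of the treatment-only regions were near those of the whole series. The replicate 1 side, of the longer lists, held more regions than either treatment-only set, and the replicate 2 side held fewer. With only the widest peaks of each list, as many as the shortest list holds, 16 regions were dDAVP-only and 17 vehicle-only.

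The 13 dDAVP-only regions were narrow, with a median span of 310 bp and a maximum of 535 bp. Prkaca, Prkacb and Prkar1b had 3 each, Pkig 2, Prkar2b and Pkia 1 each, and Prkar1a, Prkar2a and Pkib none. None was at a member's own start and 3 were in gene bodies. The widest was chr8:84028182-84028716, outside Prkaca, with 250 bp and 354 bp in dDAVP libraries. Others were chr3:7463818-7464180 outside Pkia, with 363 bp and 213 bp, and chr5:139138505-139138960 inside Prkar1b, with 360 bp and 127 bp. The regions chr3:146680692-146681114 outside Prkacb (176 bp and 311 bp), chr2:163730246-163730523 outside Pkig (219 bp and 81 bp) and chr12:31931389-31931499 outside Prkar2b (107 bp and 111 bp) were the widest of their genes.

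The 25 vehicle-only regions had a median span of 356 bp and a maximum of 1185 bp. Prkacb had 9, Prkar1a and Prkar1b 4 each, Pkig 3, Prkaca and Prkar2b 2 each, Pkib 1, and Prkar2a and Pkia none. The widest was chr8:84032085-84033269 outside Prkaca, with 370 bp and 912 bp in vehicle libraries. At Prkacb, chr3:146733267-146734237 lay inside the gene, 79.2 kb from its first start, with 396 bp and 644 bp. At Prkar1b, chr5:138968303-138969167 had 288 bp and 786 bp, and at Prkar1a, chr11:109600021-109600680 had 332 bp and 564 bp, both outside the gene. Inside Pkib, chr10:57720529-57721061 had 533 bp and 198 bp. Outside Pkig, chr2:163642642-163642997 had 356 bp and 162 bp, and inside Prkar2b, chr12:32016910-32017214 had 222 bp and 90 bp.

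One vehicle-only region lay at a member's own start. At start 3 of Pkig, whose window is printed above, chr2:163694040-163694330 had 291 bp and 96 bp in vehicle libraries and no peak in either dDAVP library. Only the peak of vehicle replicate 1 reached the window. Another region within 1 kb of that start, chr2:163692948-163693735, had 627 bp in dDAVP replicate 1, no peak in dDAVP replicate 2, and 146 bp and 438 bp in vehicle libraries. That window had 51% G + C, 5 CpG pairs, 1 CCAAT box and 1 short cyclic AMP response element, and it was the only treatment-only region at a start among the 9 genes. It is singled out here for its place, which was seen in the data first.

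Among the 126 all-library regions, limma found no difference in width between dDAVP and vehicle at an adjusted p of 0.05, as at 0% of all 88231 all-library regions, and the smallest adjusted p of the members was 0.870. At an unadjusted p under 0.05 it found 8 of 126 (6.35%), against 5.28% of all. Of these 8 regions, 4 were wider after dDAVP and 4 narrower. The median log2(dDAVP/vehicle) was 0.01 over the members and 0.04 over all, with a range of -2.88 to 1.63 over the members. A miss of the threshold does not show that the widths were alike, since each rests on 2 libraries per treatment.

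**Figure D5:**
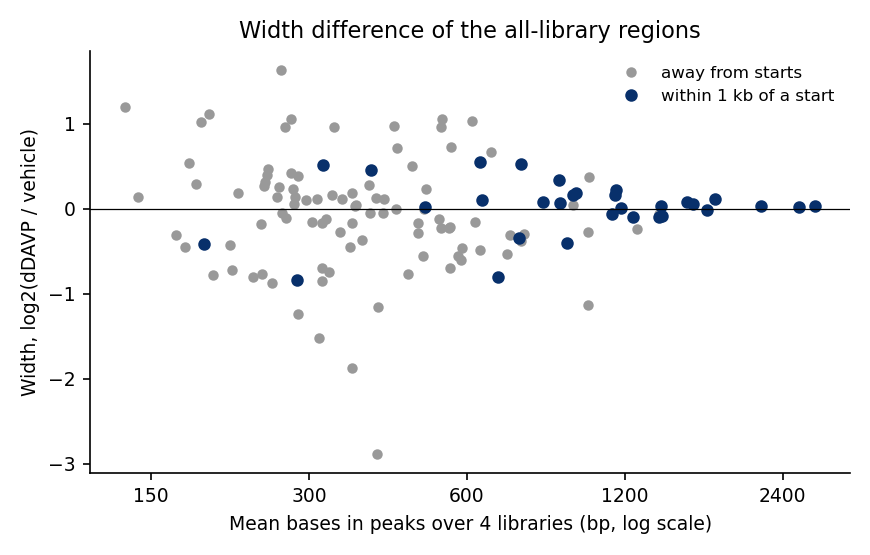
Difference in width, log2(dDAVP/vehicle) from limma (vertical axis), against mean bases in peaks over 4 libraries (bp, log scale, horizontal axis) for the 126 all-library regions, with the 31 regions within 1 kb of a start in dark blue and the others in grey. Differences run from -2.88 to 1.63, and the regions wider than the widest one away from a start (mean 1394 bp) sit close to 0.

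The 8 regions with an unadjusted p under 0.05 were picked by that value and have adjusted p of 0.870 to 0.932 (limma), so they are given as a description. The largest difference was inside Prkacb, at chr3:146745960-146747019, with 89 bp and 82 bp in dDAVP libraries and 1060 bp and 388 bp in vehicle libraries (log2 -2.88 ± 0.51, SE). A narrow peak was still called there in both dDAVP libraries. Outside Pkib, chr10:57781654-57782414 had 118 bp and 172 bp in dDAVP libraries and 761 bp and 401 bp in vehicle libraries (log2 -1.87 ± 0.43, SE). Inside Prkar1b, chr5:139110214-139110738 had 157 bp and 161 bp in dDAVP libraries and 342 bp and 485 bp in vehicle libraries. Inside Pkig, chr2:163685882-163686553 had 209 bp and 272 bp in dDAVP libraries and 587 bp and 557 bp in vehicle libraries. These 4 were narrower after dDAVP.

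The 4 that were wider after dDAVP were narrow regions. Outside Prkar1b, chr5:138979794-138980408 had 457 bp and 336 bp in dDAVP libraries and 117 bp and 151 bp in vehicle libraries (log2 1.63 ± 0.37, SE). It lies in the neighbour Pdgfa. Outside Prkar2a, chr9:108797300-108797564 had 163 bp and 197 bp in dDAVP libraries and 103 bp and 72 bp in vehicle libraries. For Prkar2b, chr12:32075366-32075784 outside the gene had 340 bp and 354 bp in dDAVP libraries and 210 bp and 175 bp in vehicle libraries, and chr12:32052042-32052291 inside it had 249 bp and 241 bp in dDAVP libraries and 118 bp and 138 bp in vehicle libraries. In each of the 8 regions the groups did not overlap, which the choice by p brings with it.

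Other genes of cyclic AMP signalling were counted in the same way. A start peak in all 4 libraries was present at 9 of 9 PKA genes, 8 of 11 adenylyl cyclase and Gs alpha genes, 10 of 14 A-kinase anchoring protein genes, 10 of 16 cyclic AMP phosphodiesterase genes and 12 of 14 genes of other cyclic nucleotide effectors and PKA targets in transcription. The median number of all-library regions was 12 for PKA genes, 13 for the cyclases and Gs alpha, 9.5 for the anchoring proteins, 6 for the phosphodiesterases and 10 for the other effectors. Per 100 kb of window the medians were 7.63, 8.36, 4.69, 1.69 and 3.68 in that order of lists.

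Within the lists, Adcy9 (31) and Adcy3 (26) had the most all-library regions of the cyclases, Akap6 (28) and Akap12 (24) of the anchoring proteins, Pde7b (27) and Pde4a (23) of the phosphodiesterases, and Prkg1, a cyclic GMP-dependent kinase gene, of the other effectors (59), followed by Rapgef3 and Atf1 (18 each). Prkar1b, with 33, thus had more than any gene of the first 3 lists by number. Per 100 kb of window its 14.1 lay below Akap5 (16.4), Pde4a (15.6) and Adcy3 (14.4), and above the other genes of those lists. Adcy10, Akap4, Akap14 and Pde4d had no start peak in any library. Only annotated starts were examined, 2 for Akap4 and 1 for each of the others, and the Pde4d window held 13 all-library regions. Nearest to the median PKA gene in peaks per library (29 in each dDAVP library, 35 and 28 in vehicle libraries), by the distance between log2 peak counts over the 4 libraries, were Adcy4 (distance 0.279), Pde4c (0.302) and Adcy6 (0.317), out of 55 genes.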

How the data were processed

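ATAC-seq peak lists of 4 libraries (dDAVP and vehicle, 2 each) were used, with treatment and replicate number from the sample titles. The build is mm10 and the tools listed are MACS2, bedtools, Picard, SAMtools, Bowtie2 and cutadapt, per the submitters' processing notes, which state neither version nor role. The peak threshold, duplicate handling and transposase offset were not given in the sources used here. For each library the authors deposited 1 list, with chromosome, start and end and no score, signal or count. Presence and width are thus the only measures, a longer list gives more present peaks, and depth and its precision are unknown.

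Peaks sharing at least 1 bp were merged over libraries, and regions in or within 50 kb of the gene bodies (RefSeq, GRCm38.p6) were taken. Coordinates are 1-based. A start peak lies within 1 kb of an annotated start, or of either gene end for genes not in the RefSeq promoter table. That table was the source of the sequences, in which 8 motifs were searched on both strands. Numbers of peaks were compared with two-sided exact permutation tests. Widths (log2 of bases in peaks, quantile-normalized) were compared with limma 3.58.1 in R 4.3.3 over 88231 regions present in all libraries. Variances were moderated over these regions, without a trend by width. Adjustment was by Benjamini-Hochberg, with a threshold of 0.05. Other steps used Python 3.11.15, pandas 2.3.3, numpy 2.4.6 and scipy 1.17.1, and the steps were tested on simulated data.

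The 9 genes, the lists and the tests were chosen with earlier results of these data known. By the rule for named items, all 9 genes are named with their widest start region, the 2 widest other regions present in all libraries and the widest region of each treatment. In each list the 2 genes with the most all-library regions are named (with ties), and the genes with no start peak. Regions with an unadjusted p under 0.05, further starts and start 3 of Pkig were added after their values were seen. Alternatives were other window sizes, a 50% overlap, wider peaks only, no normalization, a replicate block and each library left out. Ranking by peak score was replaced by ranking by width.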

Additional observations from a re-analysis of the deposited data

How the results depend on the processing

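All 9 genes kept a start peak in every library used under each alternative in which start peaks were counted. These were the 2 choices of wider peaks, other distances around starts and each library left out. Limma called no width difference without normalization, with a replicate block or with a minimum mean width of 200 bp. In these 3 fits, 7 to 9 member regions had an unadjusted limma p under 0.05. The counts of regions moved with the processing, and the cause of these moves was not tested. Regions numbered 441 with windows of 25 kb, 1070 with 100 kb and 370 with only peaks at or above the median width of their library, against 666. All-library regions numbered 70 with an overlap of 50% of both peaks and 64 with the wider peaks, against 126. The dDAVP-only regions numbered 23 with 100 kb, 21 with the 50% overlap and 7 with the wider peaks, against 13, and the vehicle-only regions 43 with 100 kb and 16 with the wider peaks, against 25. With the widest peaks only, as many per library as in the shortest list, they numbered 16 and 17. With 1 library left out, dDAVP-only regions ranged from 25 (without vehicle replicate 2) to 89 (without dDAVP replicate 2), with 64 without dDAVP replicate 1 and 42 without vehicle replicate 1. Vehicle-only regions ranged from 40 (without dDAVP replicate 2) to 172 (without vehicle replicate 2), with 56 without dDAVP replicate 1 and 70 without vehicle replicate 1. The ratio of peaks, dDAVP over vehicle, was 0.877 as reported, 1.04 with as many of the widest peaks as the shortest list holds and 1.05 as a share of each list's peaks, and ranged from 0.694 to 1.19 with 1 library left out, reaching 1.19 without vehicle replicate 1. The cause of these reversals was not tested. The log2 difference at the Pkig start ranged from -0.080 (without dDAVP replicate 2) to 1.17. The difference of the merged region over the Pkib start kept its direction but ranged from -1.44 to -0.16, the weakest without dDAVP replicate 2. The 8 regions with an unadjusted p under 0.05 kept their direction under each alternative run, except that 2 of them, of Prkar2a and Prkar2b, average under 200 bp and had no value with a minimum of 200 bp. With the replicate number as a block, limma called 0 regions, with 9 of 126 at an unadjusted p under 0.05. Libraries of the same number deviated from their group means with a correlation of 0.098 over all regions and 0.13 over the 126. The labels do not say whether numbers pair libraries, so pairing is not known. Depth is not known, so an absent peak may be one not called.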
